A study of Mus musculus with 4 samples.

Results

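The 10 genes described here encode precursors of neuropeptides that are made in pancreatic islets or in the nerves that reach them: Tac1, Npy, Gal, Cck, Gast, Nts, Adcyap1, Vip, Ucn3 and Calca. They were taken by gene name from the authors' deposited table. All 10 were on the array, as 11 of 39429 probes and 10 of 26265 named genes, and Calca alone had more than 1 probe. GKA-treated islets received 30 µM GKA, a glucokinase activator, a class of small molecule that raises glucose phosphorylation in beta cells. Vehicle islets received DMSO. Both came from 8-week-old C57BL/6 mice, were cultured in RPMI1640 medium with 5.6 mM glucose for 24 h, and gave 2 samples per group, 1 array each. The labels do not say that the samples are separate mice or cultures, so each p-value reflects only how far these samples differ, and that spread may be technical.

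Neuropeptides are cut from larger precursors in dense-core granules, stored there and released when the cell is stimulated. In islets they act locally on receptors coupled to G proteins, and they also arrive through sympathetic, parasympathetic and sensory nerves. PACAP, VIP, cholecystokinin and gastrin-family peptides generally favour insulin release, while galanin and neuropeptide Y restrain it.

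A 1-colour array reports the brightness of each probe, given here as the log2 processed intensity after taking off that array's 75th percentile, so 0 means as bright as that percentile. Levels of different probes cannot be set against each other. All 4 arrays lay on 1 slide and were scanned on 1 day, with GKA at positions 3 and 4 and vehicle at positions 1 and 2. Slide position therefore cannot be told apart from group. Between 59.7% and 63.5% of probes per array were well above background, and the 75th percentile was 557 and 598 intensity units on the GKA arrays and 751 and 755 on the vehicle arrays. The insulin and glucagon genes stood at 8.75 to 9.14 on the GKA arrays and 8.43 to 8.79 on the vehicle arrays, so the main islet hormones were bright on every array. In islet RNA from many cells, more cells of a type and more RNA per cell cannot be told apart.

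The sequences upstream of these genes are given first because several of the genes are known targets of cAMP-responsive transcription, and the promoters show which short motifs each carries. Sequences from RefSeq on build GRCm38.p6 matched all 10 genes, with 11 promoters because Adcyap1 has a pair of them, each running from 250 bases before to 50 bases after the start. The promoters of the 4 genes that rose more than 2-fold are printed 5′ to 3′ with that of Ucn3, which did not pass. Capitals mark the short core of the cAMP response element (TGACG), the E-box (CACGTG) and the AP-1 motif (TGANTCA), each searched on both strands, so the core on the other strand appears as CGTCA.
Tac1, chr6:7554811-7555110, plus strand: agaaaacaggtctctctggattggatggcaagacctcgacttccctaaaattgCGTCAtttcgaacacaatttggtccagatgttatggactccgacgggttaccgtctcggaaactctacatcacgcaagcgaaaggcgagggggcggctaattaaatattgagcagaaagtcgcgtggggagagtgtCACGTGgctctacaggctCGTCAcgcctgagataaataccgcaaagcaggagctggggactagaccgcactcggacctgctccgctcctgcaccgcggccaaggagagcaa
Nts, chr10:102490369-102490668, minus strand: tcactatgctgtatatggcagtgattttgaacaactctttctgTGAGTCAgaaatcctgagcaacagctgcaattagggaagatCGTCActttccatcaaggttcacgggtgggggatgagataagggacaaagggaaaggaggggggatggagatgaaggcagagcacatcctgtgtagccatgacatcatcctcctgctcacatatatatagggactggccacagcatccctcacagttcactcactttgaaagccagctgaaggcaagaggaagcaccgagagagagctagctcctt
Cck, chr9:121495645-121495944, minus strand: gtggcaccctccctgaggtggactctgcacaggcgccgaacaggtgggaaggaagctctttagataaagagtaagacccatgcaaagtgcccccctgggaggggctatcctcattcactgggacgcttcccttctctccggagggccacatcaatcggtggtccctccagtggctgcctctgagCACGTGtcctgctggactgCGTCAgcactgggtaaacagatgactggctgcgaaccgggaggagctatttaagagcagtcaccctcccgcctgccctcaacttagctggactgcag
Vip, chr10:5638968-5639267, plus strand: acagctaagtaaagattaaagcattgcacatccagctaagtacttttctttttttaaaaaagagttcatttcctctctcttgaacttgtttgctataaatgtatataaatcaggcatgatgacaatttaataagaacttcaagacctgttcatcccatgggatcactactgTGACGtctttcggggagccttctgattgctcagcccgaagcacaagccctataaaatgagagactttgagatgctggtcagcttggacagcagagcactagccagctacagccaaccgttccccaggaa
Ucn3, chr13:3945300-3945599, minus strand: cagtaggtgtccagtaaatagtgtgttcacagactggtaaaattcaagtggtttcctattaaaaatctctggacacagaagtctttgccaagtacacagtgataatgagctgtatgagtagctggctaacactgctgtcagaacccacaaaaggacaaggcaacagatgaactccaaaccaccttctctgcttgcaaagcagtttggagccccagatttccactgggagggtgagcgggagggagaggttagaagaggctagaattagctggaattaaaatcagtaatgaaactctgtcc

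The core TGACG lay in the promoters of 7 of the 10 genes, Tac1, Gal, Cck, Nts, Adcyap1, Vip and Calca, and was in 20.8% of all 32851 promoters of this length. Tac1 carried it at 43 and at 197 bases before the start, Cck at 47, Vip at 79 and Nts at 166, counted to the first base of the match. Of the genes that passed the test below, Npy alone had no match in its window, while Adcyap1 and Calca had one and did not pass. The E-box occurred in Tac1, 61 bases before the start, and in Cck, 66 bases before it, against 7.15% of all promoters. The AP-1 motif occurred in Nts alone, 207 bases before the start, against 7.81% of all promoters. The full element TGACGTCA, which contains the core and is in 1.79% of all promoters, and the Nr4a motif AAAGGTCA, in 1.51%, had no match in any of the 11. These are matches of letters in a window and say nothing about a factor.

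Whether the activator changed these genes was asked by comparing GKA with vehicle across 17178 genes in limma, with Benjamini-Hochberg adjustment. The genes higher in GKA-treated islets were Tac1, Nts, Cck, Vip, Gal and Npy, and Gast, Adcyap1, Calca and Ucn3 did not pass. That is 6 of 10 higher and 0 lower at an adjusted p under 0.05, where 9.11% of all genes tested were higher and 8.01% lower. The median log2 fold change of the 10 genes was 0.96, beside -0.01 over all genes tested. In 7 of the 10 both GKA arrays lay above both vehicle arrays, which was so for 32.4% of all genes. All 10 were well above background on all 4 arrays, so no gene entered through 1 group alone. With no filter on dim probes 26263 genes were tested, 223 passed and Tac1 was the 1 gene of the 10 left.

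**Figure D1:**
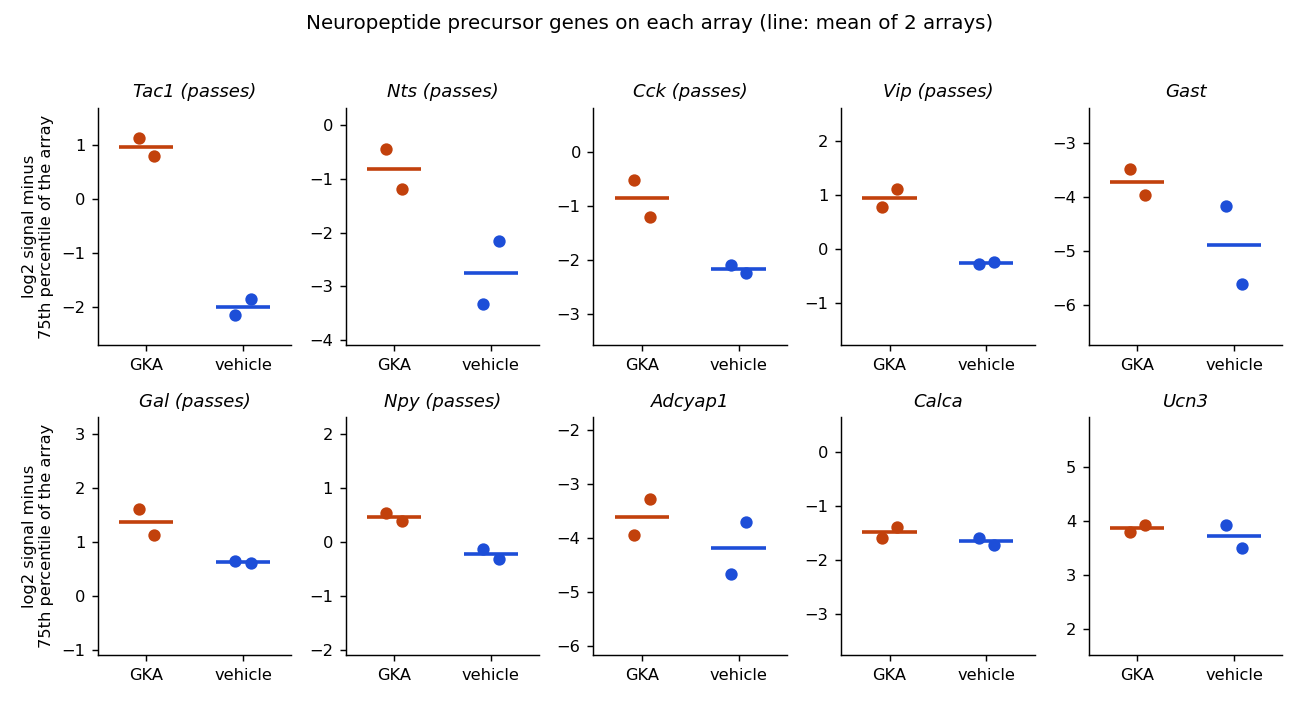
Log2 signal of each of the 10 genes minus the array's 75th percentile (vertical axis, a range of at least 4.4 in every panel) on the 2 GKA and 2 vehicle arrays (horizontal axis), with a line at each group's mean. Tac1 stands furthest apart, with GKA arrays at 1.13 and 0.80 and vehicle arrays at -2.16 and -1.86, while the groups overlap in Adcyap1, Calca and Ucn3.

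Among the peptides that act on neurokinin and neurotensin receptors, Tac1 changed most. Tac1 encodes the precursor of substance P and neurokinin A, transmitters of sensory nerves, and its probe lies on chromosome 6, 7512893 to 7512952 (build mm9, as are all probe positions here). The intensity of its probe was 1221 and 1042 units on the GKA arrays and 168 and 208 units on the vehicle arrays. On the scaled log2 axis the GKA arrays stood at 1.13 and 0.80, against -2.16 and -1.86 on the vehicle arrays. The arrays of a group lay within 0.33 of each other and the groups lay far apart. The log2 fold change was 2.98 ± 0.18 (SE), 7.88-fold, with a 95% interval of 2.54 to 3.42 (limma adjusted p = 0.00341). Of all genes tested, 0.14% had a higher fold change. It passed without any 1 of the 4 arrays, at 2.81 to 3.14.

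Nts encodes neurotensin, a peptide of gut endocrine cells and neurons, and its probe lies on chromosome 10, 101944967 to 101945026. The intensity of its probe was 408 and 260 units on the GKA arrays and 74.7 and 170 units on the vehicle arrays. Its log2 signal was -0.45 and -1.20 on the GKA arrays and -3.33 and -2.15 on the vehicle arrays. The groups did not overlap, yet vehicle replicates 1 and 2 lay 1.17 apart. The log2 fold change was 1.92 ± 0.44, 3.78-fold (adjusted p = 0.0426), with a 95% interval of 0.80 to 3.03. The call rests on single arrays. Nts stood at 2.50 and passed without vehicle replicate 2 (adjusted p = 0.00747), and stood at 1.33 without vehicle replicate 1 (adjusted p = 0.0512). Leaving out a GKA array also ended the call, at 1.54 without GKA replicate 1 (adjusted p = 0.143) and 2.29 without GKA replicate 2 (adjusted p = 0.0851).

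Cck and Gast encode cholecystokinin and gastrin, sister hormones that share receptors. The Cck probe (chromosome 9, 121398943 to 121399002) stood at -0.52 and -1.20 on the GKA arrays and at -2.10 and -2.24 on the vehicle arrays. Both GKA arrays were above both vehicle arrays, and GKA replicate 1 was the highest. Cck rose by 1.31 ± 0.24 on the log2 scale, 2.48-fold (adjusted p = 0.0259), but stood at 0.97 without GKA replicate 1 and then did not pass (adjusted p = 0.0584). The Gast probe (chromosome 11, 100197806 to 100197865) stood at -3.48 and -3.95 on the GKA arrays and at -4.16 and -5.60 on the vehicle arrays. Vehicle replicate 2, the lowest, was close to the dimmest signal well above background on that array, -5.96. The fold change of Gast was 1.17 ± 0.48 and did not pass (adjusted p = 0.148). It was 1.89 without vehicle replicate 1, where it passed (adjusted p = 0.00999), and 0.44 without vehicle replicate 2, so its size depends on which vehicle array is used.

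Vip and Adcyap1 encode vasoactive intestinal peptide and PACAP, related peptides that raise cAMP in beta cells. The Vip probe (chromosome 10, 4699238 to 4699297) stood at 0.78 and 1.11 on the GKA arrays and at -0.27 and -0.24 on the vehicle arrays. The vehicle arrays were within 0.03 of each other and clearly below both GKA arrays. Vip rose by 1.20 ± 0.15, 2.29-fold, with a 95% interval of 0.82 to 1.57 (adjusted p = 0.0122). It missed the threshold in 1 of the fits that leave out an array, at 1.04 without GKA replicate 2 (adjusted p = 0.0516). The Adcyap1 probe (chromosome 17, 93604401 to 93604460) stood at -3.95 and -3.28 on the GKA arrays and at -4.67 and -3.71 on the vehicle arrays. Vehicle replicate 2 lay above GKA replicate 1, so the groups overlap. Adcyap1 had a fold change of 0.58 ± 0.37, with a 95% interval of -0.37 to 1.52 (adjusted p = 0.322), which still holds changes as large as that of Vip. It moved with each array left out, to 0.91 without GKA replicate 1, 0.24 without GKA replicate 2, 0.10 without vehicle replicate 1 and 1.05 without vehicle replicate 2 (adjusted p = 0.0576).

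**Figure D2:**
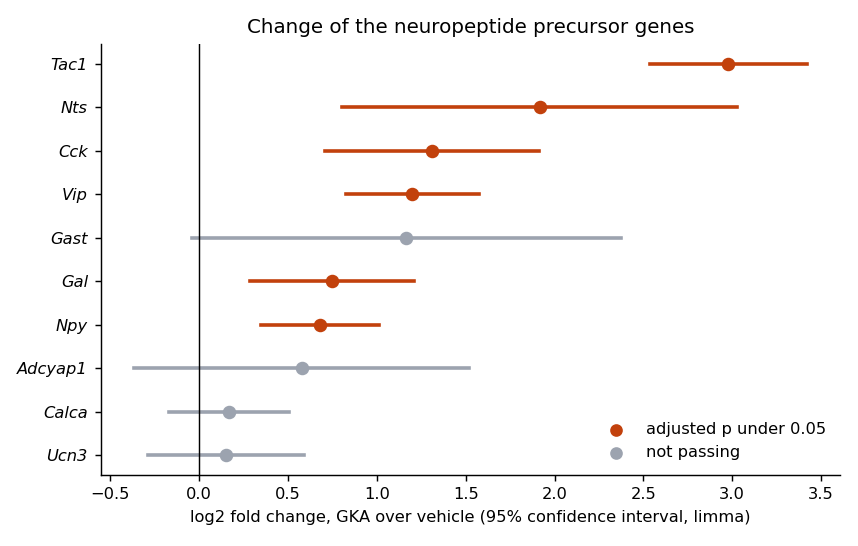
Log2 fold change of GKA over vehicle (horizontal axis) for each gene (vertical axis), with its 95% confidence interval from limma. The point estimates run from 0.15 for Ucn3 to 2.98 for Tac1, and the intervals of Gast, Adcyap1, Calca and Ucn3 include 0.

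Galanin and neuropeptide Y are cotransmitters of sympathetic nerves that also occur in islet cells, and their genes rose least among those that passed. The Gal probe (chromosome 19, 3411143 to 3411202) stood at 1.61 and 1.13 on the GKA arrays and at 0.64 and 0.59 on the vehicle arrays. The GKA arrays lay 0.48 apart, about as far as the lower of them lay above the vehicle arrays. Gal had a log2 fold change of 0.75 ± 0.18, 1.68-fold, just inside the threshold (adjusted p = 0.0493). The Npy probe (chromosome 6, with deposited coordinates 49773743 to 49777505) stood at 0.53 and 0.39 on the GKA arrays and at -0.12 and -0.32 on the vehicle arrays. Its groups were separate by more than the arrays of either group differed. Npy rose by 0.68 ± 0.13, 1.60-fold (adjusted p = 0.0296).

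Of the 6 that rose, Npy and Gal passed in the fewest of the 15 alternative fits, 9 and 7. Gal did not pass when any 1 array was left out, at 0.51 without GKA replicate 1 (adjusted p = 0.137), 0.99 without GKA replicate 2 (adjusted p = 0.0564), 0.77 without vehicle replicate 1 (adjusted p = 0.0929) and 0.72 without vehicle replicate 2 (adjusted p = 0.0871). Npy passed without vehicle replicate 1 (0.78) and missed the threshold in the other fits of this kind, at 0.61 without GKA replicate 1 (adjusted p = 0.123), 0.75 without GKA replicate 2 (adjusted p = 0.0965) and 0.58 without vehicle replicate 2 (adjusted p = 0.0639). Without scaling between arrays, where the median of all genes lay at -0.40, Gal stood at 0.36 (adjusted p = 0.11) and Npy at 0.30 (adjusted p = 0.0988), still above 0.

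Ucn3 encodes urocortin 3, a peptide that mature mouse beta cells release with insulin and that acts on delta cells. Its probe (chromosome 13, 3940178 to 3940237) stood at 3.81 and 3.94 on the GKA arrays and at 3.94 and 3.51 on the vehicle arrays. Vehicle replicate 1 was level with GKA replicate 2, and the groups overlapped. The fold change was 0.15 ± 0.17, with a 95% interval of -0.29 to 0.59 (adjusted p = 0.578). Unscaled values, spike-in scaling and the fit without vehicle replicate 2 each put it below 0, so no direction is given. Calca encodes calcitonin and, by alternative splicing, calcitonin gene-related peptide of sensory nerves. Its brighter probe (chromosome 7, 121776948 to 121777007) stood at -1.59 and -1.39 on the GKA arrays and at -1.58 and -1.73 on the vehicle arrays. The fold change was 0.17 ± 0.13, with a 95% interval of -0.17 to 0.50 (adjusted p = 0.412). The other probe (chromosome 7, 121775204 to 121775263) stood at -5.09 and -4.35 on the GKA arrays and at -5.07 and -4.59 on the vehicle arrays, a difference of 0.11. Both probes overlapped between groups, and Calca too was below 0 under spike-in scaling or no scaling.

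The authors' deposited table gives 1 unscaled intensity per group, without replicates, and its ratio of GKA over control was 6.02 for Tac1, 2.73 for Nts, 1.94 for Cck and 1.78 for Vip. For the remaining genes the authors' deposited table gives ratios of 1.54 for Gast, 1.30 for Gal, 1.23 for Npy, 1.12 for Adcyap1, 0.864 for the brighter Calca probe and 0.843 for Ucn3. The median ratio over all probes of the authors' deposited table was 0.841, so Ucn3 and Calca lay just above that median and the other 8 genes further above it.

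**Figure D3:**
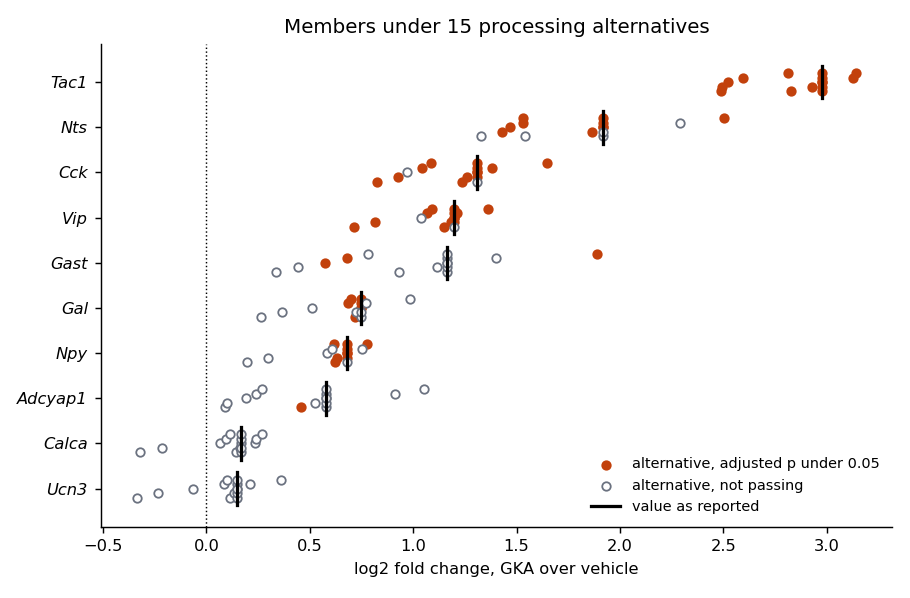
Log2 fold change of each gene (horizontal axis) in 15 alternative fits, filled where the adjusted p was under 0.05 and open where it was not, with a black bar at the value as reported. Tac1 passed in 15 of 15, Cck and Vip in 13, Nts in 10, Npy in 9, Gal in 7, Gast in 3 and Adcyap1 in 1, and Calca and Ucn3 in 0.

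GKA replicates lay further apart than vehicle replicates for Tac1, Gal, Cck, Vip and both Calca probes, and closer together for Nts, Gast, Adcyap1, Ucn3 and Npy. For Vip the gap was 0.32 between the GKA arrays and 0.03 between the vehicle arrays. For Gast it was 0.47 between the GKA arrays and 1.44 between the vehicle arrays. For the 3 genes of the 10 with the largest passing change, the nearest patterns over the 4 arrays were sought among 12715 other genes, by Euclidean distance of mean-centred log2 values. The gene nearest to Tac1 was Fam46a at 0.11, then the dynorphin precursor Pdyn at 0.28 and the secreted glycoprotein gene Stc2 at 0.28. Nearest to Nts were the lactate transporter Slc16a3 at 0.14, Selenbp1 at 0.29 and the lactate dehydrogenase gene Ldha at 0.34. Nearest to Cck were Diras2 at 0.14, the arrestin-domain gene Arrdc4 at 0.18 and the aquaglyceroporin Aqp3 at 0.21. These distances rest on 4 arrays that share the difference between the 2 groups.

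Receptors for these peptides changed in both directions. Of 27 names listed, 26 were on the array, 15 were tested and 11 were not well above background on both arrays of a group. Of the 15, 6 were higher with GKA and 2 lower, with a median of 0.47. Over all genes tested, 9.11% were higher and 8.01% lower. Where all 4 arrays had to be well above background, 13 receptors were tested, with 5 higher and 2 lower (median 0.38). Without scaling 3 of the 15 were higher and 3 lower (median 0.09), and with spike-in scaling 2 were higher and 3 lower (median -0.01). Over all genes, 750 of 17178 were higher and 7654 lower without scaling, and 468 and 6108 with spike-in scaling. Tacr3, the neurokinin receptor that prefers neurokinin B, stood at -3.03 and -3.35 on the GKA arrays and at -6.09 and -5.59 on the vehicle arrays, where it was well above background on 1 of 2. It rose by 2.65 ± 0.21 (adjusted p = 0.00508), with values of 0.84 to 2.90 in 14 alternative fits, so its size is uncertain.

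The receptors of VIP moved apart. Vipr1, which binds VIP and PACAP, stood at 3.88 and 4.08 on the GKA arrays and at 2.53 and 2.52 on the vehicle arrays, a change of 1.45 ± 0.12 (adjusted p = 0.00533). Vipr2, which binds the same ligands, stood at -2.13 and -2.41 on the GKA arrays and at 0.85 and 0.52 on the vehicle arrays, a change of -2.96 ± 0.17 (adjusted p = 0.00341). Adcyap1r1, the receptor specific for PACAP, stood 0.79 ± 0.18 higher (adjusted p = 0.0414), with 1 of its 2 vehicle arrays well above background. It ranged from 0.22 to 0.96 over 14 alternative fits and passed in 5 of them, so its size and its call are uncertain. The galanin receptors also differed in direction, Galr1 at 1.01 ± 0.11 (adjusted p = 0.00964) and Galr3 at -0.57 ± 0.13 (adjusted p = 0.0394). Cckbr, which binds cholecystokinin and gastrin, rose by 0.98 ± 0.19 (adjusted p = 0.0281). It was dim, at -4.27 and -3.96 on the GKA arrays and at -5.29 and -4.91 on the vehicle arrays. Its change ran from 0.27 to 1.17 over 15 alternative fits. Ramp2, an accessory protein of the calcitonin receptor-like receptor, rose by 0.54 ± 0.12 (adjusted p = 0.042). Of the 15 alternative fits Cckbr passed in 8 and Ramp2 in 7. Ramp3 (0.56, adjusted p = 0.108) and Tacr2, the neurokinin A receptor (0.47, adjusted p = 0.0615), did not pass. Crhr2, the urocortin receptor, stood at 0.38 (adjusted p = 0.315).

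Several receptors of the peptides that rose most were too dim to test. The substance P receptor Tacr1 and the neurotensin receptors Ntsr1 and Ntsr2 were not well above background on any of the 4 arrays, nor was Cckar. Calcrl, the calcitonin receptor-like receptor, and Calcr, the calcitonin receptor, were also not well above background on any of the 4 arrays. Of the 6 receptor genes that rose, 3 kept their call without GKA replicate 1, 2 without GKA replicate 2, 3 without vehicle replicate 1 and 5 without vehicle replicate 2. Over 15 alternative fits Vipr1 ran from 0.97 to 1.56 and Vipr2 from -3.45 to -2.51. Tacr3 was well above background on 1 of 2 vehicle arrays. It was absent from the fit that required all 4 arrays to be well above background. In the other 14 its change ran from 0.84 to 2.90. The fits without 1 array kept the genes chosen on all 4 arrays, so Tacr3 could not drop out of them.

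Of 38 other peptide precursors tested, 10 were higher, 0 lower and 28 did not pass, with a median of 0.31. Over all genes tested, 9.11% were higher and 8.01% lower. Where all 4 arrays had to be well above background, 31 precursors were tested, with 8 higher and 0 lower. A dimmer Kiss1 probe, not used for the count, was lower (-0.52, adjusted p over probes = 0.0422). The balance of the 38 depended on scaling. Without scaling 10 were higher and 4 lower (median -0.08, against -0.40 over all genes). With spike-in scaling 7 were higher and 6 lower (median -0.18, against -0.50 over all genes). Pdyn, the dynorphin precursor, stood at 6.98 and 6.73 on the GKA arrays and at 4.05 and 4.17 on the vehicle arrays, a change of 2.74 ± 0.14 (adjusted p = 0.00297). Vgf, a granule protein cut into several peptides, rose by 2.13 ± 0.18 (adjusted p = 0.00518). Cartpt, the precursor of CART, rose by 1.75 ± 0.14 (adjusted p = 0.00508). Adm, the adrenomedullin precursor, rose by 2.43 ± 0.39 (adjusted p = 0.0198). Adm stood at 0.31 and -0.09 on the GKA arrays and at -2.91 and -1.74 on the vehicle arrays. Pthlh, the parathyroid hormone-like peptide, rose by 2.47 ± 0.32 (adjusted p = 0.013), with 1 of its 2 vehicle arrays well above background. Its size is uncertain too, at 0.74 to 2.91 in 14 alternative fits. Trh, the thyrotropin-releasing hormone precursor, stayed under the well-above-background mark on both vehicle arrays. Trh rose by 1.43 ± 0.18 (adjusted p = 0.0124). The ratio was 2.55-fold with each vehicle array set at the dimmest signal well above background or its own signal, whichever was higher. That ratio is not a lower limit, and the size and the call of Trh are uncertain. Its change ran from 0.22 to 1.67 over 14 alternative fits and passed in 10 of them.

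The main islet hormone genes other than Sst did not pass. Sst, the somatostatin gene, rose by 0.83 ± 0.13 (adjusted p = 0.0198). Ins1 stood at 0.31 (adjusted p = 0.134), Gcg at 0.31 (adjusted p = 0.129) and Ins2 at 0.25 (adjusted p = 0.171). The rise of Sst lay between those of Gal and Vip, and whether the neuropeptide genes differ from the hormone genes was not tested. All 10 precursors that rose kept their call without vehicle replicate 1 and without vehicle replicate 2, 4 of them without GKA replicate 1 and 5 without GKA replicate 2.

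Genes that process and package neuropeptides were higher in 6 of 22 cases and lower in 1, with a median of 0.24. In the same fit 9.11% of all genes tested were higher and 8.01% lower. Without scaling 4 were higher and 4 lower (median -0.15), where 750 of 17178 genes were higher and 7654 lower. With spike-in scaling 3 were higher and 3 lower (median -0.25), where 468 of all genes were higher and 6108 lower. Pam, which amidates the C-terminus of substance P, VIP, neuropeptide Y, cholecystokinin and others, stood at 2.88 and 3.32 on the GKA arrays and at 0.90 and 1.35 on the vehicle arrays (1.97 ± 0.22, adjusted p = 0.00971). The prohormone convertase gene Pcsk1 rose (1.77 ± 0.17, adjusted p = 0.00667). For Pcsk2, another convertase, the brightest probe passed (0.62 ± 0.14, adjusted p = 0.0417) in this fit and in 7 of 15 alternatives, while its other probe stood at 0.055 (adjusted p over probes = 0.784). Higher as well were the granins Scg3 (1.55 ± 0.12) and Chgb (1.00 ± 0.12) and the vesicular monoamine transporter Slc18a1 (0.58 ± 0.12). Slc18a1 passed in 7 of 15 alternatives. Pcsk6 fell by 0.96 on the log2 scale (adjusted p = 0.0121). Cpe, the carboxypeptidase that trims the cut peptides, stood at 0.27 and did not pass (adjusted p = 0.172). Of the 6 that rose, 3 kept their call without either GKA replicate, 5 without vehicle replicate 1 and 4 without vehicle replicate 2.

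**Figure D4:**
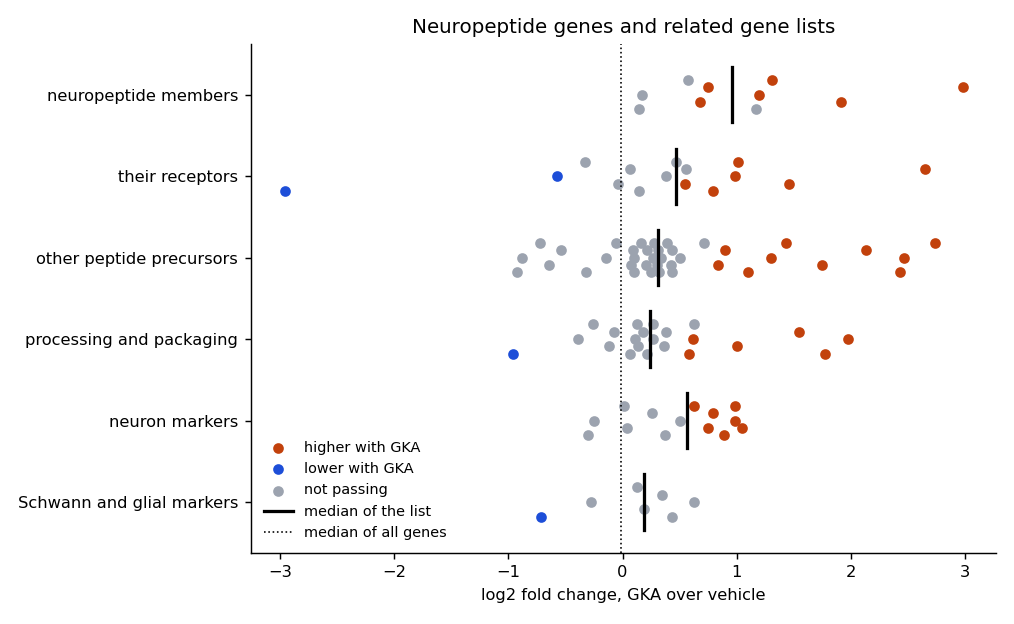
Log2 fold change of GKA over vehicle (horizontal axis) for every tested gene of 6 lists (rows), coloured by its call, with a bar at the median of the list and a dotted line at the median of all genes, -0.01. The median was 0.96 for the neuropeptide genes, 0.47 for their receptors, 0.31 for other precursors, 0.24 for processing genes, 0.57 for neuron markers and 0.19 for Schwann and glial markers.

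Some markers of neurons were higher along with the neuropeptide genes. By the brightest probe of each, 7 of 14 tested were higher with GKA and 0 lower, with a median of 0.57. Over all genes tested, 9.11% were higher and 8.01% lower. A dimmer probe was lower for Elavl4 (-0.74, adjusted p over probes = 0.025) and for Nefh (-0.50, adjusted p over probes = 0.041). The summed level of the 14, as linear signal over the 75th percentile, was 17.3 and 18.6 on the GKA arrays. On the vehicle arrays it was 14.4 and 14.4. That percentile was 557 and 598 units on the GKA arrays and 751 and 755 on the vehicle arrays, so such sums depend on the scaling. They are also led by the brightest probes of a list. The tubulin gene Tubb3 (1.05, adjusted p = 0.0176) and the stathmin gene Stmn2 (0.99, adjusted p = 0.0113) were among those that rose. Without scaling 4 of the 14 were higher and 1 lower, and with spike-in scaling 0 were higher and 2 lower. The median of all genes lay at -0.40 and -0.50 in these fits. Without GKA replicate 1 a single neuron marker was higher, and without GKA replicate 2 the count was 0. Of the markers of noradrenergic and cholinergic neurons, Dbh was well above background on 0 of 4 arrays and Chat on 1 vehicle array. Slc18a3, a cholinergic marker, was higher (0.75, adjusted p = 0.0188). Th (0.04) and Ret (-0.25) were well above background on all 4 arrays and did not pass. Endocrine islet cells also express several of these markers. Schwann and glial markers had 0 higher and 1 lower of 7 by the brightest probe. A dimmer Mbp probe was higher (0.60, adjusted p over probes = 0.0387). The summed level of the 7 was 10.8 and 10.9 on the GKA arrays and 13.5 and 12.2 on the vehicle arrays. The part of nerve cells in the rise of the neuropeptide genes was not tested.

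Among the other marker lists, beta cells had 3 higher and 2 lower of 13, a list that includes Ucn3. These counts stand beside 9.11% of all genes tested higher and 8.01% lower. The other islet endocrine cells had 3 and 0 of 13, acinar cells 2 and 3 of 9, and duct cells 1 and 2 of 10. Endothelial cells had 2 and 1 of 13, fibroblasts and stellate cells 1 and 1 of 11, and leukocytes 1 and 6 of 15. Scaling mattered here too. Left unscaled, beta cells had 3 and 2, other islet endocrine cells 3 and 1, acinar cells 2 and 4, and duct cells 1 and 4. Endothelial cells then had 0 and 6, fibroblasts and stellate cells 0 and 6, and leukocytes 1 and 10. Where all 4 arrays had to be well above background, acinar cells had 2 and 1 of 7. The endothelial list includes Ramp2. Of 28 transcription factors and CREB pathway genes known at neuropeptide promoters, 8 were higher and 1 lower. The shares over all genes tested were 9.11% and 8.01%. Without scaling 5 were higher and 8 lower, and with spike-in scaling 5 were higher and 6 lower. The median of all genes lay at -0.40 and -0.50 in these fits. Nr4a2 (3.83), Crem (1.94), Fosl2 (1.53), Hand2 (0.76) and Fosb (0.74) were among those that rose, and the coactivator Crtc3 (-0.50) was lower. Fos, Jun, Junb, Egr1 and Atf3 were among the 19 that did not pass. Nr4a2 and Crem alone of the 8 passed without any 1 of the 4 arrays.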

How the data were processed

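Total RNA was labelled with Cy3, per the labels' protocols, and hybridised to 1-colour Agilent mouse arrays. The authors deposited processed intensity values per spot, background-subtracted and detrended, made with Agilent Feature Extraction 10.7.3.1 per the file headers (9.1 per the submitters' processing notes) and not scaled between arrays. The authors' deposited table holds 1 intensity per group and their ratio.

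Control spots and spots marked as outliers were not used, and the log2 values of repeated spots were averaged per probe. The 75th percentile of each array was subtracted. Of 33697 probes with a gene name, 22139 were well above background on both arrays of a group. The brightest probe stood for each of 17178 genes. The groups were compared in limma 3.58.1 (R 4.3.3), two-sided, with 2 residual and 3.33 prior degrees of freedom. An exact permutation of 2 against 2 arrays cannot give p below 0.333, so none is reported. The number of arrays limits the precision. The fit was tested on simulated data.

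The members and gene lists were chosen with earlier results of these data known. All members are named. From each related list up to 6 passing genes per direction are named, from marker lists up to 3, with Ins1, Ins2, Gcg and Sst, and the 3 nearest genes of 3 members. A few genes beyond this rule were chosen after their values were seen. They are Ramp3, Tacr2, Crhr2, Cpe, Th, Ret, Slc18a3, Dbh, Chat, Fos, Jun, Junb, Egr1, Atf3 and receptors not well above background. The dimmer probes of Elavl4, Nefh, Mbp and Kiss1 were also chosen in this way. For marker lists other than nerve cells only counts are given. A few genes that the rule would name are not reported here. Genes carry the names of the array design, some of them old. The same replicate numbers in both groups do not mark a stated shared source. Alternatives covered scaling, background, the filter, the probe of a gene, the variance model, a replicate block and each array left out. Normexp on mean signals, a column the files used here do not hold, was not run, and median signals took its place.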

Additional observations from a re-analysis of the deposited data

How the results depend on the processing

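The 6 genes that rose kept a fold change above 0 in all 15 alternatives, and so did Gast and Adcyap1. Each of these has 1 probe. Alternatives that change only the filter, the probe of a gene, the variance model or the block cannot move its fold change. Only the fits that change scaling, background or the arrays used could have changed the sign. Ucn3 lay below 0 without scaling (-0.24), with spike-in scaling (-0.34), without vehicle replicate 2 (-0.063, in a range of -0.063 to 0.36 when 1 array was left out) and in the authors' deposited ratio (-0.25 as log2), and Calca without scaling (-0.22), with spike-in scaling (-0.32) and in the authors' deposited ratio (-0.21). The number of members passing, 6 as reported, was 4 without scaling, 5 with spike-in scaling, 1 with no filter on dim probes and 2 to 5 when 1 array was left out. Over all genes, 2941 passed as reported (1565 higher, 1376 lower), against 8404 without scaling (750 higher, 7654 lower), 6576 with spike-in scaling (468 higher, 6108 lower, median of all genes -0.50), 3229 with median scaling (1381 higher, 1848 lower), 5045 with normexp and the 75th percentile, chosen after seeing the data, 223 with no filter on dim probes (156 higher, 67 lower), and 533 to 2835 when 1 array was left out. Of the genes of the related lists, 67 passed as reported (47 higher, 20 lower), 89 without scaling (34 higher, 55 lower), 77 with spike-in scaling (22 higher, 55 lower), 12 with no filter and 23 to 60 when 1 array was left out. In the spike-in fit every member had the same SE, 0.27, so its p-values used 1 common spread and not each gene's own. Gast was among the 5 members passing there, while Gal and Npy were not. Gast was also among the members passing without vehicle replicate 1, so neither count is of the 6 alone. Fits without 1 array had fewer samples by construction. The cause of the other shifts was not tested.

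With the replicate number as a block, 1916 genes and 4 members passed, and Gal (adjusted p = 0.0587) and Nts (adjusted p = 0.0844) did not. The differences between replicates 1 and 2 of the 2 groups correlated at 0.075 over genes, so the numbers are not treated as pairs. Signal close to background limits Gast, Adcyap1, the dimmer Calca probe, Tacr3, Cckbr, Adcyap1r1, Pthlh and Trh.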
